A study of Mus musculus with 9 samples.

Results

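Tubulins are the proteins of which microtubules are built, and 10 tubulin genes are described here in MyC-CaP, a prostate cancer line of the mouse. They are the α-tubulin genes Tuba1a, Tuba1b, Tuba1c and Tuba4a and the β-tubulin genes Tubb2a, Tubb2b, Tubb3, Tubb4b, Tubb5 and Tubb6, taken by gene name from a table of 15384 genes. The names were listed with earlier results of these counts known, so the changes of these genes over time are a description, with no p-value given for any of them. MyC-CaP is an established line and comes from a prostate tumor of a transgenic mouse in which MYC is driven by a probasin-based promoter. To ask how prostate cancer cells respond to ASPN (asporin), which stromal fibroblasts secrete, serum and calcium were withheld for 6 to 12 hours and 100 ng/mL of recombinant mouse ASPN was then added. RNA was sequenced at 0, 12 and 24 hours with ASPN, with 3 libraries per time. ASPN is also the labeled treatment of the 0-hour libraries, and these were used as time 0. No library of cells kept for 12 or 24 hours without ASPN was among the 9, so the effect of ASPN and that of the hours in culture cannot be told apart. In these bulk samples, less mRNA per cell and fewer cells of a kind cannot be told apart either.

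An α- and a β-tubulin protein form a dimer, and dimers join end to end and side by side into the hollow microtubule that carries cargo, shapes the cell and builds the mitotic spindle. Mammals have several genes for each, whose proteins (isotypes) differ mostly in the acidic tail at the C-terminal end, which lies on the microtubule surface and binds motors, associated proteins and modifying enzymes. Cells also hold the level of tubulin mRNA to the amount of free dimer: when free tubulin rises, the protein Ttc5 recognizes the first residues of a new tubulin chain on the ribosome and the mRNA is degraded. Tubb3 is known as the neuronal β-tubulin, and Tubb5 and Tuba1b are broadly expressed isotypes.

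The gene starts show where this recognition falls. The first 30 coding bases (GENCODE M21 transcripts, GRCm38) are printed for the β-tubulin with the most mRNA, the β-tubulin with the highest fold change, the α-tubulin with the most mRNA at time 0 and the α-tubulin that was lower at 24 hours, with capitals for the first 4 codons.
Tubb5: ATGAGGGAAATCgtgcacatccaggccgga
Tubb2b: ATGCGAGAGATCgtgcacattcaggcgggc
Tuba1b: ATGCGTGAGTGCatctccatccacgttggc
Tuba1c: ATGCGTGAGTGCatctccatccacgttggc

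The last 60 coding bases before the stop codon, which hold the variable tail, show how the β-tubulin genes with a printed sequence differ. For Tubb2a and Tubb4b capitals mark bases that differ from Tubb5, and for Tubb2b those that differ from Tubb2a, in alignments of the whole coding sequences.
Tubb5: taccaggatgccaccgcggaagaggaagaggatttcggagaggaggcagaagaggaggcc
Tubb4b: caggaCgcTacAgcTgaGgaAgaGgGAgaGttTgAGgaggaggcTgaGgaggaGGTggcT
Tubb2a: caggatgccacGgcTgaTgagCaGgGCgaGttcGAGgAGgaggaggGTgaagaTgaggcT
Tubb2b: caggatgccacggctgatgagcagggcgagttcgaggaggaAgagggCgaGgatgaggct

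Tubb2a and Tubb2b differed at 3 of these bases, whereas Tubb2a differed from Tubb5 at 17 and Tubb4b from Tubb5 at 19. These are counts of bases, not of residues. The 3 differences between Tubb2a and Tubb2b are silent, so their printed ends encode the same residues. Over the whole coding sequence, the 6 pairs of α-tubulin genes were 84.7 to 98.3% identical (median 91.2%) and the 15 pairs of β-tubulin genes 80.2 to 96.5% (median 83.4%). An α- and a β-tubulin gene were 52.5 to 55.4% identical over the 24 pairs. Each gene has 4 coding exons and 444 to 451 codons.

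Close copies lie side by side in the genome (GRCm38). Tuba1b (chr15:98931425-98934565, minus strand), Tuba1a (chr15:98949837-98953703, minus) and Tuba1c (chr15:99029891-99038110, plus) form a cluster, as do Tubb2a (chr13:34074274-34078007, minus) and Tubb2b (chr13:34126748-34130466, minus). Tuba4a (chr1:75214228-75219865, minus), Tubb4b (chr2:25222160-25224702, minus), Tubb5 (chr17:35833921-35838306, minus) and Tubb3 (chr8:123411424-123422015, plus) stand on chromosomes of their own, and so does Tubb6 on chromosome 18. Since a read from a stretch that copies share cannot be placed on one of them, every 150-base window of each main transcript was looked up in the transcripts of all other genes. Of the windows of Tuba1a, Tuba1b and Tuba1c, 54.7, 57.9 and 46.7% occurred unchanged in another gene, and of those of Tubb2a, Tubb2b and Tubb4b 27.9, 20.1 and 16.8%. No window of Tubb3, Tubb5 or Tubb6 was shared. For Tuba4a the 45.7% came from Stk16, a gene on the opposite strand that overlaps it by 1379 bases, and none of its coding windows was shared. A gene model named Gm49450 overlaps Tuba1a by 473 and Tuba1b by 426 bases on the same strand. How the authors counted reads that match several genes, or both strands, is not given in the sources used here. The split among the 3 Tuba1 genes and between Tubb2a and Tubb2b is therefore less certain than the level of Tubb5. The same holds for the levels of Tuba4a and Tubb4b.

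The deposited counts totaled 41881191 to 52993821 per library, at which 3 counts correspond to 0.0566 to 0.0716 CPM (counts scaled by the library total). Libraries of the same time differed by more than sampling noise in each pair (chi-square over degrees of freedom of 3.48 to 18.2). The labels call them biological replicates and the protocol names wells plated in triplicate, so p-values measure the spread between these wells. Of the epithelial prostate markers, Krt8, Cldn4 and Foxa1 averaged over 1 CPM, and Epcam (1 count over all libraries), Cldn7 (5), Cdh1 (26) and Krt18 (108) were at or near 0. Of 7 fibroblast markers 4 had a row in the table, and of these only Pdgfra was over 1 CPM (summed level of the list 12.96 to 14.1 CPM at time 0 and 9.09 to 10.3 at 24 hours). Of 8 neuronal markers 5 had a row, and of these only Rbfox3 was over 1 CPM (116 to 124 and 106 to 110.5 CPM for that list). None of the 3 immune and 3 endothelial markers with a row, of 6 and 5 listed, was over 1 CPM.

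Levels between genes were compared as TPM, that is counts per kilobase of exon, scaled to the same sum over the table in each library. At time 0 Tuba1b had the highest TPM of the 10 genes, with a mean level of 757 TPM (SD 46, n = 3), followed by Tubb5 (662 ± 12), Tuba1a (422 ± 14), Tubb4b (284 ± 19) and Tuba1c (209 ± 8.4). Tubb6 (94.5 ± 5.4), Tuba4a (49.7 ± 1.7), Tubb2a (28.7 ± 1.2) and Tubb2b (10.4 ± 0.60) were lower, and no 2 neighbors in this order overlapped between their libraries. The order at 12 hours was the same, but the libraries of Tuba1b (730 TPM) and Tubb5 (721 TPM) then overlapped. At 24 hours Tubb5 led with 1356 ± 54 TPM and Tuba1b came next with 601 ± 36. Tubb6 (122 TPM) stood above Tuba1c (93.5 TPM), which it had been below at time 0, and Tubb2a (49.6) and Tubb2b (48.8) could not be ordered because their libraries overlapped. Tubb3 was last at every time. The order of Tuba1b and Tubb5 before 24 hours rests on the length used. Per kilobase of the main transcript, a length chosen after the data were seen, Tubb5 (243 ± 2.6 CPM per kilobase) and Tuba1b (238 ± 17) overlapped at time 0, and at 12 hours Tubb5 was higher (269 ± 8.7 against 233 ± 19). Tuba1a (147 ± 11) and Tubb4b (139 ± 3.7) then overlapped at 24 hours.

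For changes over time, counts were scaled with TMM factors and compared with edgeR. A gene was called when its Benjamini-Hochberg adjusted p over all tested genes was 0.05 or less and its fold change at least 1.5. For the 10 tubulin genes, which were chosen with such results known, a call only says that a gene passed these thresholds and is no evidence about them. Of the 10 members 9 passed the filter on low counts, and Tubb3 did not. The comparisons of 12 and of 24 hours share the time 0 libraries.

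**Figure D1:**
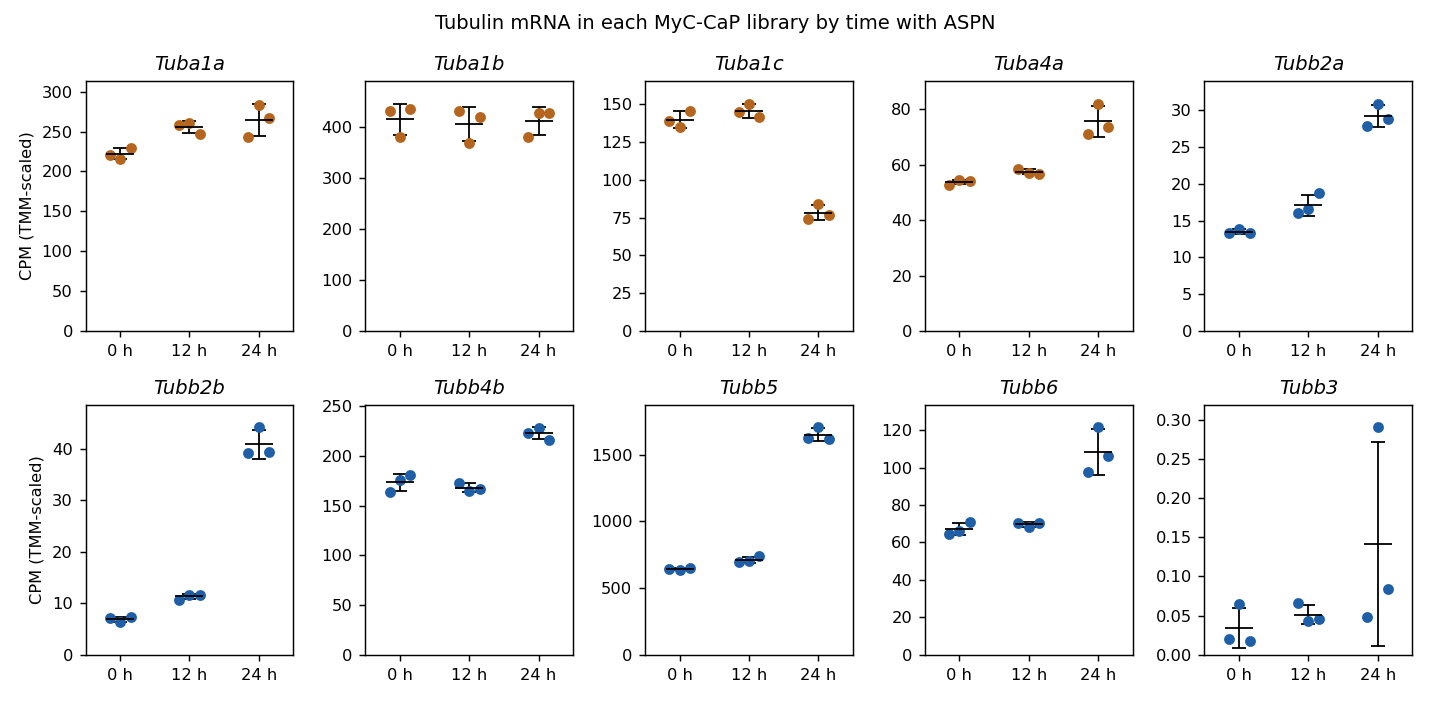
TMM-scaled CPM (y axis, linear from 0, own scale per gene) of the 10 tubulin genes in each of the 9 libraries by hours with ASPN. Points are libraries, orange for α- and blue for β-tubulin genes, and bars give the mean ± SD of 3 libraries. At 24 hours the points of Tubb5, Tubb2a, Tubb2b, Tubb4b, Tubb6 and Tuba4a lie above all earlier ones, and those of Tuba1c below.

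Among the β-tubulin genes, 4 of the 5 tested were called higher at 24 hours than at time 0, and none was called lower, when 28.8% of all tested genes were called (12.0% higher). Tubb5, the β-tubulin with the most mRNA, was at 644, 636 and 649.7 CPM in the 3 libraries of time 0, at 695, 702 and 738 at 12 hours and at 1625, 1703 and 1616 at 24 hours. Its 3 groups of libraries did not overlap, and most of the difference lay between 12 and 24 hours. The log2 fold change of Tubb5 was 0.15 (SE 0.033) at 12 hours and 1.36 (SE 0.041) at 24 hours against time 0, the latter a level 2.57-fold higher.

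Tubb2b, an isotype known from developing neurons, had the highest fold change of the members. Its libraries were at 7.21, 6.41 and 7.29 CPM at time 0, at 10.7, 11.7 and 11.6 at 12 hours and at 39.1, 44.2 and 39.4 at 24 hours. Each time was above the one before in every library. The log2 fold change of Tubb2b was 0.71 (SE 0.088) at 12 hours, or 1.63-fold, and 2.56 (SE 0.076) at 24 hours, or 5.88-fold. It was the only member called at 12 hours.

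Tubb2a, the neighbor and closest copy of Tubb2b, was at 13.3, 13.9 and 13.3 CPM at time 0, at 16.0, 16.6 and 18.7 at 12 hours and at 27.9, 30.8 and 28.8 at 24 hours. Its groups did not overlap either, and its log2 fold change at 24 hours was 1.12 (SE 0.066), or 2.17-fold. The level of Tubb2b relative to Tubb2a, both in TPM, was 0.363 ± 0.033 at time 0, 0.467 ± 0.029 at 12 hours and 0.983 ± 0.023 at 24 hours (SD, n = 3). Tubb2b therefore went from the lower of the pair to about the level of Tubb2a.

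Tubb6, another β-tubulin isotype, was at 64.7, 66.3 and 70.7 CPM at time 0, at 70.3, 68.1 and 70.4 at 12 hours and at 97.4, 121 and 106 at 24 hours. The first 2 times overlapped and the third was higher, its log2 fold change being 0.69 (SE 0.070) against time 0, or 1.62-fold. This is close to the 1.5-fold threshold. Tubb6 was not called with total counts in place of TMM factors (log2 fold change of 0.47), nor for 24 against 12 hours without replicate 2 of 24 hours (0.57).

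Tubb4b, a broadly expressed isotype, spanned 163 to 180.5 CPM in the time 0 libraries, 164 to 173 after 12 hours and 216 to 228 after 24 hours. The 24-hour libraries were all higher than those of time 0, but the log2 fold change of 0.37 (SE 0.044) was under the 1.5-fold threshold. Tubb3 had 1, 3 and 1 counts at time 0, 3, 2 and 2 at 12 hours and 2, 14 and 4 at 24 hours, at or under the floor of 3 counts in 7 of 9 libraries, with 14 of its 32 counts in 1 library of 24 hours. No fold change is given for it.

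Among the α-tubulin genes, 1 of the 4 was called at 24 hours, and it was lower (28.8% of all tested genes were called, 16.8% lower). Tuba1c was at 139, 134 and 146 CPM at time 0, at 144, 150.1 and 141 at 12 hours and at 74.0, 83.6 and 76.9 at 24 hours. The first 2 times overlapped and every 24-hour library was lower, by 1.78-fold against time 0 (log2 fold change of -0.83, SE 0.051). Tuba1c was the only member called lower.

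Tuba1b spanned 380.3 to 435 CPM in the time 0 libraries, 368 to 431 after 12 hours and 381 to 428 after 24 hours. The libraries of the 3 times overlapped, and its log2 fold change at 24 hours was -0.01 (SE 0.058). Tuba1a, an α-tubulin known for its role in developing neurons, was at 216 to 229.5, 247 to 261 and 243 to 284 CPM, higher at 12 (log2 fold change of 0.20, SE 0.033) and 24 hours (0.26, SE 0.051) than in any library of time 0. Tuba4a was at 52.7 to 54.4, 56.7 to 58.5 and 71.0 to 81.9 CPM, with no overlap between times and a 24-hour log2 fold change of 0.50 (SE 0.054). Both stayed under the threshold.

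**Figure D2:**
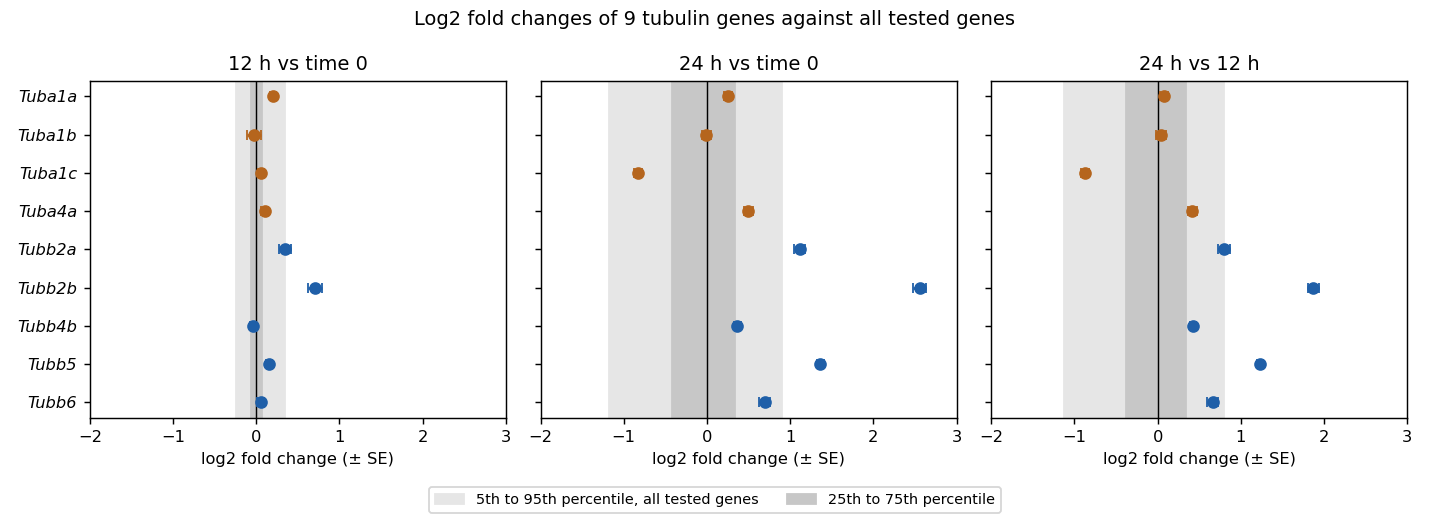
Log2 fold changes (x axis, ± SE) of the 9 tested tubulin genes in the 3 comparisons, orange for α- and blue for β-tubulin genes, over the 5th to 95th (light gray) and 25th to 75th percentile (dark gray) of all tested genes. At 24 hours against time 0, Tubb2b (2.56), Tubb5 (1.36) and Tubb2a lie above the 95th percentile of 0.90, and Tuba1c (-0.83) between the 5th and the 25th.

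Against the whole table, 1 of 9 members was called at 12 hours, when 1.61% of 11410 tested genes were called (1.52% higher and 0.0964% lower). The libraries of 5 members were all higher than at time 0, none were all lower and 4 overlapped, where 27.0% of tested genes did not overlap (13.4% higher and 13.6% lower). The median log2 fold change was 0.10 for the members and -0.0049 for all tested genes.

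At 24 hours 5 of 9 members were called, 4 higher and 1 lower, when 28.8% of 11444 tested genes were called (12.0% higher and 16.8% lower). The libraries of 7 members were all higher, of 1 all lower and of 1 overlapping, where 73.9% of tested genes did not overlap (35.6% higher and 38.3% lower). The median log2 fold change was 0.50 for the members, 0.13 for the 4 α-tubulin genes and 1.12 for the 5 tested β-tubulin genes, against -0.016 for all tested genes. TMM factors were 0.899 to 0.914 at 24 hours and 1.04 to 1.07 at time 0, and with total counts in their place the median of all tested genes shifted to -0.24 and the share of calls that were higher went from 41.6% to 18.8%. Under total counts Tuba1a was at 0.03 and Tuba1b at -0.23 (log2 fold change at 24 hours), while each tested β-tubulin gene remained above 0.

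From 12 to 24 hours 5 members were again called, when 25.6% of 11394 tested genes were called (10.4% higher and 15.3% lower). The libraries of 6 members were all higher, of 1 all lower and of 2 overlapping, where 73.9% of tested genes did not overlap (35.5% higher and 38.5% lower). Tubb2b (log2 fold change of 1.87, SE 0.066), Tubb5 (1.23, SE 0.036), Tubb2a (0.79, SE 0.069) and Tubb6 (0.66, SE 0.066) were higher, and Tuba1c (-0.87, SE 0.046) was lower. Tubb2a (0.57) and Tubb6 (0.44) lost the call with total counts, under which Tuba1a (0.07, SE 0.047) and Tuba1b (0.04, SE 0.062) turned to -0.15 and -0.18, and with the length and GC correction they were at -0.02 and -0.04.

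**Figure D3:**
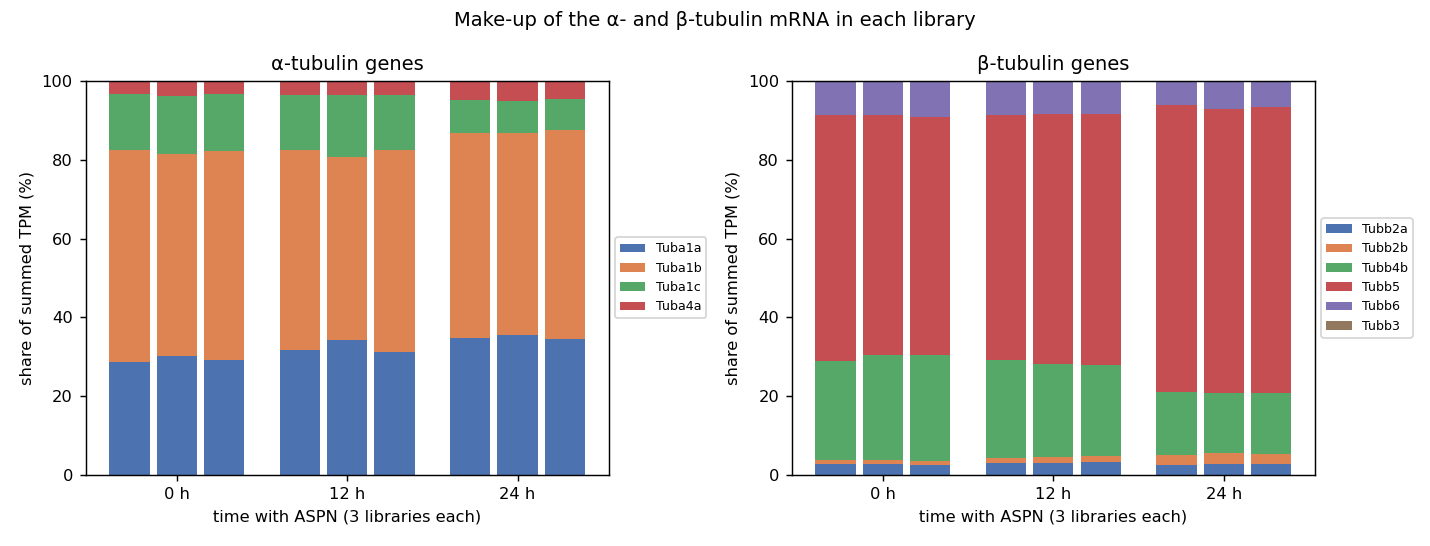
Share of each gene (y axis, percent) in the summed TPM of the α-tubulin (left) and β-tubulin genes (right), with 1 stacked bar per library and 3 libraries per time. Tubb5 takes a mean of 61.3% of the β-tubulin total at time 0 and 72.6% at 24 hours, Tubb4b goes from 26.3% to 15.6% and Tuba1c from 14.5% to 8.12% of the α-tubulin total.

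The isotype make-up of each library followed from these levels. Tubb5 made up 61.3% ± 1.0 of the summed β-tubulin TPM at time 0, 63.2% ± 0.79 at 12 hours and 72.6% ± 0.40 at 24 hours (SD, n = 3). Tubb4b went from 26.3% ± 0.90 to 23.8% ± 0.86 and 15.6% ± 0.30 of that total, while its own level was 284 ± 19.0 TPM at time 0, 271 ± 8.44 at 12 hours and 292 ± 11.9 at 24 hours. In TPM its libraries overlapped between the times. Tubb6 took 8.75, 8.44 and 6.50%, Tubb2a 2.66, 3.13 and 2.65% and Tubb2b 0.963, 1.46 and 2.61%.

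Of the α-tubulin total, Tuba1b made up about the same share at each time, 52.6% ± 1.3, 49.5% ± 2.6 and 52.2% ± 0.88. The share of Tuba1c was 14.5% ± 0.31, 14.5% ± 0.87 and 8.12% ± 0.26. Tuba1a took 29.4, 32.4 and 34.8% and Tuba4a 3.46, 3.55 and 4.85%.

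**Figure D4:**
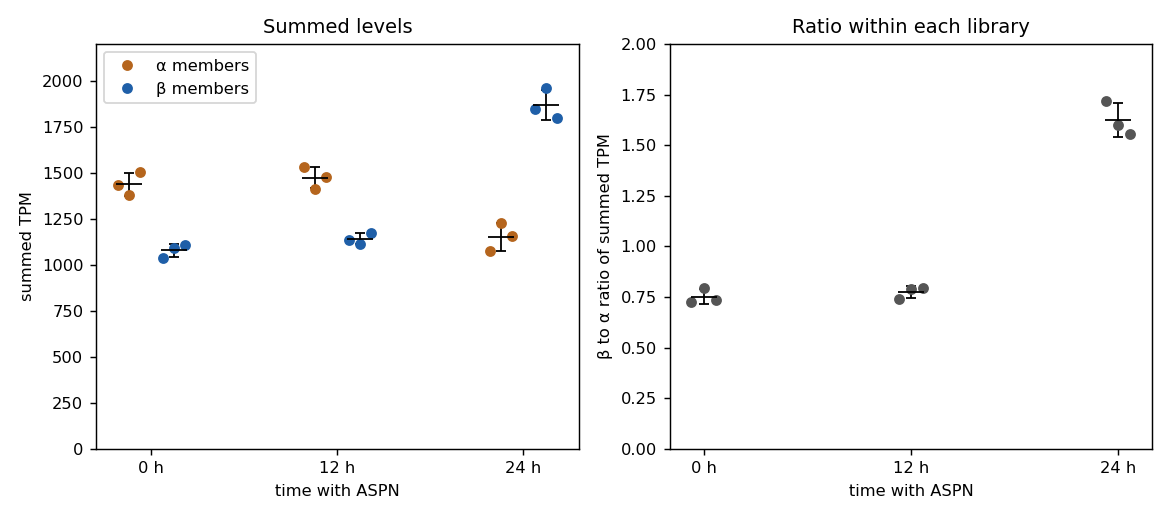
Left, TPM (y axis, linear from 0) summed over the 4 α- and the 6 β-tubulin genes in each library by hours with ASPN. Right, the ratio of the β to the α sum within each library. Points are libraries and bars the mean ± SD of 3. The ratio lies at 0.725 to 0.793 at time 0 and at 1.56 to 1.72 at 24 hours.

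Summed over the genes, α-tubulin mRNA was above β-tubulin mRNA at time 0 (1438 ± 62 against 1079 ± 36 TPM) and at 12 hours (1474 ± 59 against 1141 ± 30). At 24 hours it was below (1152 ± 75 against 1868 ± 83 TPM). The ratio of β to α in the 3 libraries was 0.725, 0.793 and 0.737 at time 0, 0.742, 0.789 and 0.794 at 12 hours and 1.72, 1.60 and 1.56 at 24 hours. The mean ratio was 2.16-fold higher at 24 hours than at time 0 and 1.03-fold at 12 hours. A ratio within a library does not depend on the scaling between libraries. It was 2.01- to 2.27-fold higher under other length measures, without length scaling, per window that no other gene shares, and without Tuba1c. The value per unshared window divides all counts of a gene by its number of such windows. It is another length measure and does not check on which copy a read was placed. Whether α or β was the larger sum did depend on the length measure, since the ratio at time 0 was 1.09 without length scaling and that at 24 hours 0.879 per unshared window. The β sum was 1.73-fold and the α sum 0.801-fold its time 0 level in TPM, but with TMM factors per kilobase these were 2.16 and 1.00, so a fall in the α sum was not seen on that scale. The 10 genes took 0.183% of all counts at time 0, 0.192% at 12 hours and 0.262% at 24 hours.

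The windows just upstream of the genes are shown for the leading β-tubulin, the α-tubulin that was lower, and Tubb4b, which holds the most motif matches. These are 250 bases before the RefSeq gene start (GRCm38.p6), read on the gene's strand, at chr17:35838302-35838551 (minus) for Tubb5, chr2:25224703-25224952 (minus) for Tubb4b and chr15:99029641-99029890 (plus) for Tuba1c. Capitals mark CCAAT, its reverse complement ATTGG, or TTTGAA.
Tubb5: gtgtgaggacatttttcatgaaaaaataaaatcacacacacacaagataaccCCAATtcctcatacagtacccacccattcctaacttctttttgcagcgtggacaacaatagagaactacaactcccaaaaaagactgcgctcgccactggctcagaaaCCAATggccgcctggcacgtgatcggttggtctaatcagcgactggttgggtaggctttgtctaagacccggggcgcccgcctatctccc
Tubb4b: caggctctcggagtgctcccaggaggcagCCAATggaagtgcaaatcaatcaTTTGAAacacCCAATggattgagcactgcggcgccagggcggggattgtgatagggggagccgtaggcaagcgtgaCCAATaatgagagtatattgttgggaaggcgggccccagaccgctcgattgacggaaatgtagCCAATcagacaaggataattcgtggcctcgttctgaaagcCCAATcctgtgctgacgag
Tuba1c: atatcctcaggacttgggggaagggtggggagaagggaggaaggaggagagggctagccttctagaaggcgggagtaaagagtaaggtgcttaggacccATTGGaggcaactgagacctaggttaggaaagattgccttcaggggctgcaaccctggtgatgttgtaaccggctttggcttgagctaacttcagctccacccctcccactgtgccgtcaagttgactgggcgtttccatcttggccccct

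The CCAAT box binds the factor NF-Y, and the cell-cycle homology element TTTGAA is known from genes of the late cell cycle. Windows of 8 members were in the table, and Tubb2b and Tubb6 were not among them. Both strands of the 250 bases and the 50 after the start were searched. CCAAT or ATTGG occurred 5 times in Tubb4b, at 221, 188, 122, 59 and 19 bases upstream of the start, and 2 times in Tubb5, at 198 and 90 bases. It occurred once each in Tuba1a, Tuba1c and Tubb3 and not in Tuba1b, Tuba4a or Tubb2a. Of 32851 windows of all genes, 37.4% held at least 1 match, 11.7% at least 2 and 0.27% at least 5. TTTGAA or TTCAAA occurred once, in Tubb4b, and in 17.9% of all windows. The E2F-type cores TTCCCGC or GCGGGAA (4.6% of all windows) and TTGGCGC or GCGCCAA (2.5%) occurred in none of the 8. The motifs do not overlap one another in these windows.

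For Tubb5 and Tubb2b, likeness to other genes was measured as the root mean square difference between log2 CPM values centered on each gene's mean over the 9 libraries, among 11257 genes. The genes nearest to Tubb5 were Serpinb6b, a serpin protease inhibitor (difference of 0.052), Col12a1, which encodes a collagen chain (0.053), and Emp1, a membrane protein gene (0.057). Emp1 was at a mean of 299 CPM at time 0, 303 at 12 hours and 734 at 24 hours. The genes nearest to Tubb2b were Dusp1, a phosphatase that inactivates MAP kinases (0.143), Adam8, a metalloprotease (0.197), and Cd74, the invariant chain of MHC class II (0.285). Dusp1 went from a mean of 30.7 CPM to 42.4 and 152.

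Other genes of tubulin biology, from 6 lists, show what moved around the members. These lists, and the actin list further below, were chosen by function but with earlier results of these data known. The p-values of their genes come from the fit over all tested genes and carry that limit. Of 88 genes 85 were in the table and 74 were tested. At 12 hours edgeR's quasi-likelihood test called 0 of the 74, of which 8 had an unadjusted p under 0.05 and 4 an adjusted p of 0.05 or less, and DESeq2 and limma-voom called 0 as well. At 24 hours against time 0, 10 were called higher and 3 lower (17.6%, beside 28.8% of all tested genes), with a median log2 fold change of 0.23. With total counts in place of TMM factors this split turned to 3 higher and 13 lower.

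Of the other tubulins, 4 of 9 were tested. Tubb4a, a β-tubulin of oligodendrocytes and neurons, fell from 2.05 ± 0.51 to 1.04 ± 0.086 CPM (log2 fold change of -0.96, SE 0.24, edgeR adjusted p = 0.0020). Tubg1, the γ-tubulin that nucleates microtubules, was at 38.8 ± 1.9 CPM at time 0 and 52.0 ± 0.70 at 24 hours (0.43, SE 0.052, edgeR adjusted p = 2.3e-06), under the 1.5-fold threshold. Tubg2 had 0 to 6 counts per library.

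Tubulin chains are folded by the chaperonin CCT, to which prefoldin delivers them, and are then joined into dimers by the folding cofactors. Of 15 CCT and prefoldin genes 5 were called higher at 24 hours and none lower (33.3%, beside 28.8% of all tested genes, 12.0% higher), and the list had a median of 0.50 on the log2 scale. They were the CCT subunits Cct4 (0.73, SE 0.044, edgeR adjusted p = 9.2e-10), Tcp1 (0.72, SE 0.045, adjusted p = 1.3e-09) and Cct2 (0.60, SE 0.039, adjusted p = 2.3e-09) and the prefoldin subunits Pfdn1 (0.69, SE 0.050, adjusted p = 8.1e-09) and Pfdn5 (0.68, SE 0.053, adjusted p = 2.3e-08). All 5 lost the call with total counts in place of TMM factors, at 0.38 to 0.51. Pfdn5, Pfdn1 and Cct2 also lost it with a correction for length and GC content, at 0.46 to 0.47. None of the 8 folding cofactor and autoregulation genes was called by edgeR, DESeq2 or limma-voom (median 0.22). In edgeR 6 had an unadjusted p under 0.05, and the same 6 an adjusted p of 0.05 or less. These 6 missed the call by the 1.5-fold threshold only. Ttc5, the reader of the tubulin autoregulation, was at 27.0 ± 1.9, 27.5 ± 1.2 and 24.7 ± 0.78 CPM (-0.12 at 24 hours, SE 0.066, edgeR adjusted p = 0.10).

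Of 9 genes of the γ-tubulin ring complex and its partners, Tubgcp4 (0.77, SE 0.081, edgeR adjusted p = 5.2e-07) and Mzt2 (0.62, SE 0.071, adjusted p = 1.2e-06) rose and Tubgcp6 fell (-0.64, SE 0.071, adjusted p = 9.1e-07). These calls are 33.3% of the list, beside 28.8% of all tested genes (12.0% higher and 16.8% lower). With the length and GC correction Tubgcp6 was at -0.11 and Mzt2 at 0.41 and neither was called, and Mzt2 was not called without replicate 3 of 24 hours either (0.57). With total counts Tubgcp4 (0.55) and Mzt2 (0.40) were not called.

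Of 17 enzymes that add or remove marks on tubulin, the polyglutamylase gene Ttll7 rose (0.87, SE 0.054, edgeR adjusted p = 1.4e-09) and Ttll11, another of that family, fell from a low level (-0.77, SE 0.22, adjusted p = 0.0051), which is 11.8% called, beside 28.8% of all tested genes. Of 21 genes for associated, plus-end and destabilizing proteins, Map2, which binds along microtubules and is best known from dendrites, rose from 2.97 ± 0.58 to 7.40 ± 0.73 CPM (1.32, SE 0.14, edgeR adjusted p = 7.9e-07), and Katna1, the severing subunit of katanin, rose from 27.5 ± 1.1 to 52.1 ± 4.0 CPM (0.92, SE 0.062, adjusted p = 3.3e-09). These are 9.52% of that list, beside 28.8% of all tested genes (12.0% higher). Stmn1, which binds free tubulin dimers, was higher (0.49, SE 0.054, edgeR adjusted p = 8.8e-07) but under the threshold.

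From 12 to 24 hours 10 of the 74 were called higher and 5 lower (20.3%, beside 25.6% of all tested genes, 10.4% higher and 15.3% lower). With total counts the split was 1 higher and 12 lower, and with the length and GC correction 11 and 2. Beyond genes already named, Tubgcp2 of the ring complex was higher (0.62, SE 0.071, edgeR adjusted p = 1.4e-06), and the tubulin acetylase gene Atat1 (-0.76, SE 0.24, adjusted p = 0.010) and Map7d1 (-0.60, SE 0.065, adjusted p = 7.1e-06) were lower. Tubgcp2 lost the call with total counts (0.40) and without replicate 1 of 12 hours (0.58) or replicate 2 of 24 hours (0.56), and Map7d1 with the length and GC correction (-0.29), with upper-quartile factors (-0.58) and without replicate 1 of 24 hours (-0.52).

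**Figure D5:**
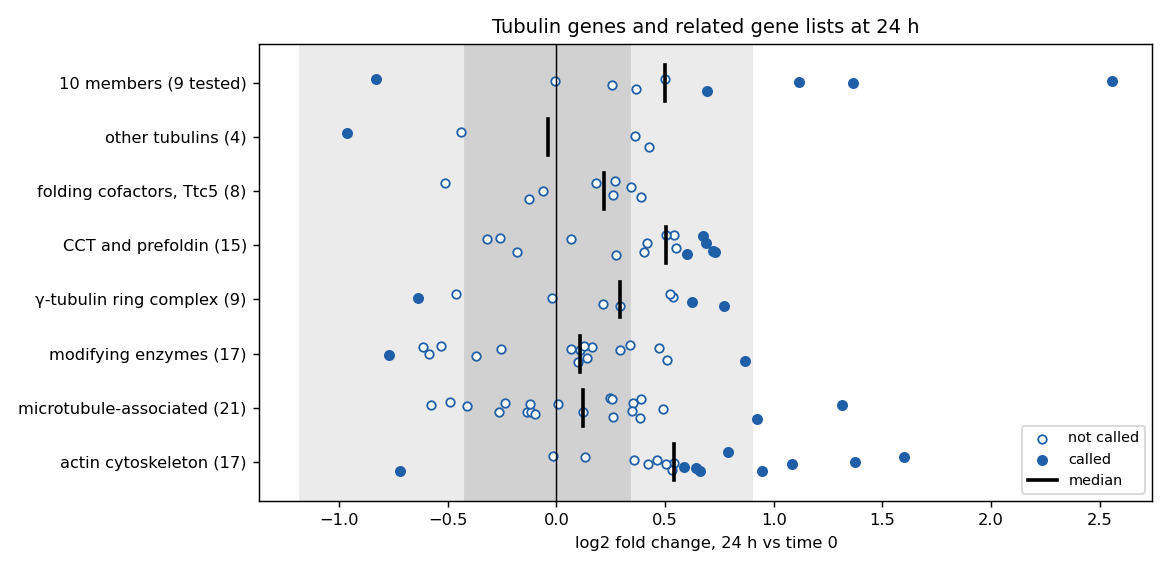
Log2 fold changes at 24 hours against time 0 (x axis) of the 9 tested members and of the tested genes of 7 lists, with the number tested in brackets. Filled points were called, open points were not, black bars are medians and gray bands the 5th to 95th and 25th to 75th percentiles of all tested genes. Medians are 0.50 for the members, 0.50 for CCT and prefoldin, 0.12 for microtubule-associated genes and 0.54 for the actin list.

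The actin cytoskeleton was set beside the tubulins as the other large filament system. Of 17 tested actin genes edgeR, DESeq2 and limma-voom called 0 at 12 hours. In edgeR 11 had an unadjusted p under 0.05 and 9 an adjusted p of 0.05 or less. These 9 missed the call by the 1.5-fold threshold only. At 24 hours 8 were called higher and 1 lower (52.9%, beside 28.8% of all tested genes, 12.0% higher and 16.8% lower), with a median log2 fold change of 0.54. Actg1, which encodes cytoplasmic γ-actin, rose by 1.60 (SE 0.057, edgeR adjusted p = 7.4e-12) and Tmsb4x, the monomer-binding thymosin β4, by 1.37 (SE 0.044, adjusted p = 1.6e-12). Myl6, a myosin light chain, was just past the threshold (0.59, SE 0.041, edgeR adjusted p = 4.6e-09) and lost the call in 5 of the alternatives, and the myosin heavy chain Myh9 fell by 0.72 (SE 0.087, adjusted p = 5.5e-05), a fall that was 0.12 and not called with the length and GC correction. The lists were compared by their counts and medians only, and no difference between them and the members was tested.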

How the data were processed

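RNA-Seq of 9 MyC-CaP libraries was analysed. Per the labels and methods, the authors made TruSeq mRNA libraries, sequenced paired ends of 150 bases, and ran cutadapt, STAR (GRCm38.p6) and featureCounts. The deposited table holds the resulting raw counts, not normalized. The members and gene lists were chosen with earlier results of these data known. Each of 3 comparisons was fitted on its own 6 libraries with edgeR 4.0.16 in R 4.3.3 (filterByExpr, TMM factors, robust quasi-likelihood test, Benjamini-Hochberg over all tested genes). Printed CPM values are TMM scaled over 9 libraries, with SD over 3. TPM used the union of exons of GENCODE M21, in which 15374 of 15384 genes were found by identifier. The paper names another release, GENCODE vM24, for the mouse annotation. Of the genes, 15242 had the same start and end in M21 as in the deposited counts, so some exon lengths may differ. Counts on the table's genes totaled 41881191 to 52993821 per library.

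List genes were named if called (5 or fewer per list, otherwise the 2 highest and 2 lowest with a mean of at least 50 counts), with γ-tubulins, Ttc5 and Stmn1 in any case. The fit was run on simulated data of 24 hours against time 0, where 100% of 200 genes changed by 2-fold among 11434 were called, with 0 false calls. Every simulated gene had the same dispersion. Only genes with at least 50 expected counts were changed, as many up as down. The real data hold far more called genes and an uneven split, so this checks the code and not how often real calls are false. Alternatives were DESeq2 1.42.0, limma-voom 3.58.1, other scalings and filters, one fit of 9 libraries, a replicate block, length and GC offsets (span 0.3), the adjusted p alone and leaving out each library. Some marker genes and sequences are not reported here.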

Additional observations from a re-analysis of the deposited data

How the results depend on the processing

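The calls of members, 1 at 12 hours, 5 at 24 hours and 5 for 24 against 12 hours, moved by more than 1.5 times only with the adjusted p alone (4 at 12 and 8 at 24 hours) and with total counts (3 for 24 against 12 hours). Leaving out 1 library gave 1, 5 and 4 to 5 calls. With the adjusted p alone, 1260, 8110 and 8123 genes and 4, 57 and 64 of the other microtubule genes were called, in place of 184, 3292 and 2922 genes and 0, 13 and 15. Leaving out 1 library gave 154 to 198, 3242 to 3310 and 2871 to 2997 genes, and 0, 13 to 16 and 15 to 17 other microtubule genes. The share of calls that were higher at 24 hours was 41.6% and became 50% with the length and GC correction and 18.8% with total counts, and for 24 against 12 hours 40.5%, 50.6% and 14.6%. The ratio of β to α at 0, 12 and 24 hours was 0.891, 0.918 and 1.92 with the longest transcript, 1.09, 1.13 and 2.47 without length scaling, 0.421, 0.433 and 0.879 per unshared window and 0.880, 0.907 and 1.77 without Tuba1c. The last 2 of these and the scaling by TMM per kilobase were chosen after the data were seen. Leaving out 1 library moved the ratio within 0.731 to 0.765, 0.765 to 0.792 and 1.58 to 1.66. The α sum at 24 hours over time 0 was 0.999 without length scaling and 1.00 with TMM per kilobase, and the β sum 2.27 and 2.16. Among the named genes of the lists, log2 fold changes turned sign for Ttc5 at 12 hours (-0.0093 with the length and GC correction, -0.0098 with it and the replicate block, -0.028 without replicate 3 of time 0, and -0.028 to 0.065 over the libraries left out) and Stmn1 (0.041 without that library, 0.0025 without replicate 1 of 12 hours, and -0.056 to 0.041 over the libraries left out), and the cause was not tested. Same-numbered libraries did not deviate together (mean correlations of -0.011, -0.061 and 0.024), so they were not treated as pairs. With the number as a replicate block 177, 3247 and 2918 genes and 1, 5 and 5 members were called. TPM uses no TMM factors, so total counts gave no separate value for the sums. Depth limits Tubb3, and shared sequence limits the Tuba1 genes, Tuba4a, Tubb2a, Tubb2b and Tubb4b.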
